A study of Mus musculus with 24 samples.

Results

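The comparison concerned pancreatic islets of old mice 7 days against 2 days after partial pancreatectomy (PPTx), the surgical removal of part of the pancreas, after which the remaining beta cells are stimulated to replicate. Groups were read from the sample titles, and 6 of the 24 libraries of the series belonged to them: 4 of old islets at day 2 and 2 of old islets at day 7. All came from 52-week-old mice that had undergone PPTx, and the study's methods describe male C57BL/6J animals, removal of 50% of the pancreas, and islets freed with collagenase and picked by hand, each sample being pooled from 1 or 2 animals. Further old libraries, 4 from unoperated controls and 2 from day 14, and 12 libraries of 8-week-old mice (4 control, 4 day 2, 2 day 7 and 2 day 14) served as reference. The treatment description given to every sample names isolation 2 days after surgery, while the titles and the study's methods give days 2, 7 and 14, which were followed here. Since controls were not operated, the removal of tissue and the operation itself cannot be told apart.

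After PPTx the remnant pancreas heals while islet cells respond to a higher demand for insulin. Interferons are cytokines that bind receptors coupled to Janus kinases, and these kinases activate STAT factors, which enter the nucleus and bind the interferon-stimulated response element (ISRE) or a gamma-activated site. The genes they induce encode antiviral effectors, large GTPases that coat pathogen-containing vacuoles, and the machinery that loads peptides on major histocompatibility complex (MHC) molecules. Beta cells and the macrophages and endothelial cells of the islet all carry such receptors.

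The libraries were islet-like by their hormone genes: Ins2 was counted at 73880 to 97440 CPM (counts scaled by the summed counts of a library, its depth) in the day 2 libraries and at 82200 and 88990 CPM at day 7. Summed counts ran from 8865989 to 11349494 at day 2 and were 9564472 and 9243505 at day 7. A code in the sample descriptions, called the run label below, split the day 2 group. Day 2 replicates 1 and 2, both day 7 libraries and every young library carried the first label, whereas day 2 replicates 3 and 4 (and control replicates 3 and 4) carried the second. Of the mapped reads, 54.01% and 54.4% lay in genes in day 2 replicates 1 and 2, 41.3% and 33.6% in replicates 3 and 4, and 58.5% and 61.4% at day 7. Each comparison is therefore given over all 4 day 2 libraries and again within the first run label. A collection code in the same descriptions was shared by both day 7 libraries and by no day 2 library, so that collection and day cannot be told apart.

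Only 2 of 15521 genes tested, 0.0129%, differed between day 7 and day 2 at an adjusted p below 0.05 (edgeR quasi-likelihood test in a fit of 12 old libraries, Benjamini-Hochberg). Both were guanylate-binding proteins, large interferon-induced GTPases, and both were higher at day 7. Gbp10 had 3.37, 5.75, 5.02 and 3.70 CPM at day 2 and 25.5 and 15.8 CPM at day 7 (log2 fold change 2.29, SE 0.284, adjusted p = 0.0279). Gbp6 had 8.16, 10.5, 10.4 and 6.73 CPM at day 2 and 36.7 and 28.7 CPM at day 7 (log2 fold change 1.96, SE 0.244, adjusted p = 0.0279). In both genes every day 7 library lay far above every day 2 library, and replicate 1 of day 7 was the higher of the pair. Unoperated old islets had 3.997 to 6.83 CPM of Gbp10 and 8.64 to 13.2 CPM of Gbp6, levels that overlapped those of day 2. At day 14 Gbp10 was at 4.68 and 7.59 CPM and Gbp6 at 8.06 and 15.02 CPM. Against control, day 7 was higher by 2.098 log2 units in Gbp10 (adjusted p = 0.0132) and by 1.69 in Gbp6 (adjusted p = 0.0139).

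The genes lie next to each other on mouse chromosome 5 (mm9), Gbp10 at 105643926 to 105668552 and Gbp6 at 105699723 to 105722718, both on the minus strand and both protein coding. Their transcripts are near copies: 66.6% of the 93-base stretches of Gbp10 and 66.3% of those of Gbp6 occurred in another member of the family, nearly always in each other. Only uniquely mapped reads had been counted, so the split of reads between the pair is uncertain and the 2 calls are not independent. Within the first run label the log2 fold changes were 2.24 and 1.88, but neither passed the threshold (adjusted p = 0.111 for each), and 0 of 13922 genes did. Leaving out any 1 of the 6 libraries also left 0 genes past the threshold, while the log2 fold change stayed above 1.5 in either gene under all 22 settings tried.

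**Figure D1:**
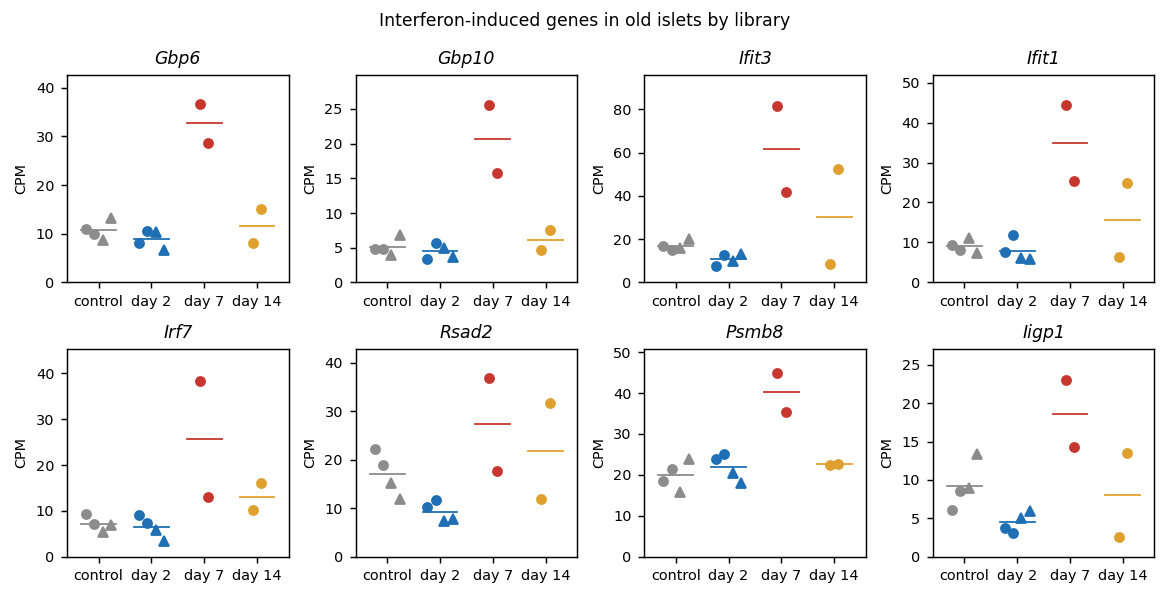
CPM (y axis, linear from 0) of 8 interferon-induced genes in each old library (x axis, group); circles are libraries of the first run label, triangles those of the second, and lines group means. In Gbp6 and Gbp10 the day 7 libraries (28.7 and 36.7 CPM, 15.8 and 25.5 CPM) stand above all other old libraries, and in Ifit1 and Ifit3 1 of the 2 day 14 libraries also lies above day 2.

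Other interferon-induced genes had differences of similar or larger size that did not pass the adjusted threshold. A list of 22 genes of the interferon response was examined by counts: 15 had an unadjusted p below 0.05 with higher values at day 7, against 4.54% of all genes tested, and in 13 both day 7 libraries were above all 4 day 2 libraries, against 5.9% of all genes. None had an unadjusted p below 0.05 in the other direction, and none passed the adjusted threshold. The median log2 fold change was 1.02 over the list and -0.03 over all genes tested. Within the first run label 14 of the 22 had an unadjusted p below 0.05 with higher values, against 4.73% of all genes, and the median was 1.23 against 0.00 over all genes.

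The IFIT proteins bind foreign RNA and block its translation. Ifit3 was counted at 7.50, 12.9, 10.04 and 13.02 CPM at day 2 and at 81.3 and 42.0 CPM at day 7 (log2 fold change 2.59, SE 0.479, adjusted p = 0.221). Ifit1 was counted at 7.61, 11.96, 6.08 and 5.95 CPM at day 2 and at 44.3 and 25.4 CPM at day 7 (log2 fold change 2.23, SE 0.429, adjusted p = 0.221). For Ifit2 the day 2 libraries held 3.26 to 4.57 CPM and the day 7 libraries 17.5 and 5.63 CPM. Day 2 and day 7 did not overlap in any of the 3 genes, and day 7 replicate 1 exceeded replicate 2 in each. Both day 7 libraries also lay above every control library in Ifit1 and Ifit3. For Ifit2, controls had 74, 51, 53 and 50 counts and day 7 had 167 and 52, so replicate 2 was not above the controls.

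Among the antiviral enzymes, Rsad2, which encodes viperin, stood at 7.31 to 11.7 CPM at day 2 and at 36.9 and 17.6 CPM at day 7 (log2 fold change 1.63, SE 0.407, adjusted p = 0.336). Controls had 193, 134, 141 and 82 counts of Rsad2 and day 7 had 353 and 163. Day 7 replicate 2 thus lay within the control range. The oligoadenylate synthetase Oas1a had a log2 fold change of 1.17 and its relative Oasl2 one of 1.30, with no overlap between day 2 and day 7. Ddx58, which encodes the RNA sensor RIG-I, differed by 0.63 and Usp18, which restrains interferon receptor signalling, by 0.71. Isg15 (0.65 to 3.14 CPM), Mx1 and Ifi44 overlapped between the groups, and in these 3 genes the difference turned negative when day 7 replicate 1 was left out. The sensor Ifih1 overlapped too, with a log2 fold change of 0.30, and Bst2, which tethers budding virus, had 17.5 and 6.71 CPM at day 7 against 4.04 to 7.11 at day 2.

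Of the transcription factors, Irf7, which amplifies type I interferon responses, stood at 3.48 to 9.03 CPM at day 2 and at 38.4 and 12.98 CPM at day 7 (log2 fold change 2.08, SE 0.419, adjusted p = 0.237). Stat2, a signal transducer of type I interferons, differed by 0.01 with overlapping libraries. Cxcl10, a chemokine that draws activated lymphocytes, had 0 to 0.56 CPM at day 2 and 11.7 and 8.01 CPM at day 7 (log2 fold change 4.69, SE 0.928, adjusted p = 0.237).

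The large and small GTPases were described over a further list of 16 tested genes, drawn up after their values had been seen. It held both genes past the threshold, 11 genes with an unadjusted p below 0.05 and higher values (4.54% of all genes), 1 with lower values (5.95% of all genes), and a median log2 fold change of 0.76 (0.75 within the first run label). Gbp3 was at 3.48 to 5.02 CPM at day 2 and at 15.9 and 8.01 CPM at day 7. The immunity-related GTPase Iigp1 was at 3.16 to 5.95 CPM at day 2 and at 23.0 and 14.3 CPM at day 7 (log2 fold change 2.14), and Tgtp2 at 8.99 to 19.8 CPM and 38.3 and 35.5 CPM (1.64). Igtp, Irgm1 and Irgm2 differed by 0.75, 0.61 and 0.68, without overlap in any of the 3. Gbp1 was the exception, with 1.69 to 3.97 CPM at day 2 and 1.36 and 0.757 CPM at day 7 (log2 fold change -1.36, unadjusted p = 0.0402). Gbp2 and Gbp3 are in both lists.

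The start regions of these genes were searched for the letters of the ISRE, GAAANNGAAA, on both strands, in RefSeq windows of GRCm38.p6 from 250 bases before to 50 bases after the start. Of all 27025 genes with a window 3.99% held the letters, and of the 10441 tested genes with one 3.80%. Among interferon response genes 11 of the 18 with a window held them, and among GTPases all 8 with a window. Both lists name interferon-induced genes, and the GTPase list was drawn up after its values had been seen. A high share was thus set by the choice of members and is not a result about day 7. Among genes with an unadjusted p below 0.05, 7.01% of the 499 higher at day 7 held the letters. Of the 581 lower at day 7 it was 4.3%. The search was chosen with the values known, and Gbp6 and Gbp10 had no window in the table. The 250 bases before the start, 5' to 3' along the gene, are shown for 3 genes of the response list and 2 immunity-related GTPases, with the matches in capitals, since these members had the same letters in different number, orientation and distance. They lie at chr19:34640639-34640888 (plus strand) for Ifit1, chr19:34583279-34583528 (plus) for Ifit3, chr12:26456453-26456702 (minus) for Rsad2, chr11:58199306-58199555 (plus) for Igtp and chr11:58214727-58214976 (plus) for Irgm2.
Ifit1: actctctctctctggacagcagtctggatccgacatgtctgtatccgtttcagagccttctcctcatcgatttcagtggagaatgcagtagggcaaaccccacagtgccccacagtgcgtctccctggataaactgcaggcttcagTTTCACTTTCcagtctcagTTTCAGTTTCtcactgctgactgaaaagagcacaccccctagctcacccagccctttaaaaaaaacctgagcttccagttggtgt
Ifit3: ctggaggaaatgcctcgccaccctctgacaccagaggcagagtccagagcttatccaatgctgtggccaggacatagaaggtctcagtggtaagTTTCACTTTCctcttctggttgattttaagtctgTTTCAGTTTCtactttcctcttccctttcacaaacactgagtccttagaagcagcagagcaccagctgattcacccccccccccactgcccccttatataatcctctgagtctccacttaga
Rsad2: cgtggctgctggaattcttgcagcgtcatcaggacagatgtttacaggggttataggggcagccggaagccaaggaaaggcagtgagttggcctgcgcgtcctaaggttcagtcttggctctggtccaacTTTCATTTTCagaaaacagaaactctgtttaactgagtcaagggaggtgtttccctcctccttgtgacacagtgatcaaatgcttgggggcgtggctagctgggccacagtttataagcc
Igtp: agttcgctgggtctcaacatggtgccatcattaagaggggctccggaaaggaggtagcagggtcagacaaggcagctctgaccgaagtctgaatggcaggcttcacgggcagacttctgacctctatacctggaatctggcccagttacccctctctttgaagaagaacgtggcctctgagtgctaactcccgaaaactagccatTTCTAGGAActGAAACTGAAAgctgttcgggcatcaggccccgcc
Irgm2: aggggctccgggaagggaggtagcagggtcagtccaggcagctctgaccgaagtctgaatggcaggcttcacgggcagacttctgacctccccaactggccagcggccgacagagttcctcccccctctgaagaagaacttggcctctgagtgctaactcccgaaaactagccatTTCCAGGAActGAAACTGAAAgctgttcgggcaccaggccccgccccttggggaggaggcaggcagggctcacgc
Ifit1 held 2 matches, beginning 104 and 85 bases before the start, and Ifit3 held 2, at 156 and 122 bases. The single match of Rsad2 began at 120 bases, that of Igtp at 34 and that of Irgm2 at 64. In Igtp and Irgm2 the letters of a gamma-activated site, TTCNNNGAA, also in capitals, stood just before the ISRE letters without overlapping them. Those letters were in 9.55% of all windows, in 4 of 18 of the interferon response genes and in 5 of 8 of the GTPases. A match is a run of letters and was not tested for binding.

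Antigen presentation was described over 17 tested genes, again chosen after values were seen. All 17 had positive log2 fold changes, 11 had an unadjusted p below 0.05 (4.54% of all genes) and in 11 the day 7 libraries were above day 2 (5.9% of all genes), with a median of 0.51 (0.37 within the first run label). Psmb8, a subunit of the immunoproteasome that cuts peptides for MHC class I, stood at 17.96 to 25.2 CPM at day 2 and at 45.0 and 35.5 CPM at day 7 (log2 fold change 0.96, SE 0.178, adjusted p = 0.221). The other immunoproteasome subunits Psmb9 and Psmb10 differed by 0.67 and 0.51, the peptide transporter subunits Tap1 and Tap2 by 0.59 and 0.31, and tapasin (Tapbp) by 0.46. B2m, the light chain of MHC class I, had 65.8 to 83.3 CPM at day 2 and 93.4 and 88.7 CPM at day 7. The heavy chain gene H2-K1 overlapped, with a log2 fold change of 0.21. The class II genes H2-Aa, H2-Ab1 and H2-Eb1, found in antigen-presenting cells, differed by 0.60, 0.69 and 0.57. Psmb8 and Tap1 are also in the response list.

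The upstream genes did not show such values. The receptor subunits Ifnar1, Ifnar2, Ifngr1 and Ifngr2 differed by -0.02, 0.05, 0.05 and 0.11, and over 8 tested genes of interferons, receptors and their kinases and factors the median was 0.05, with none higher and only Ifnb1 lower at an unadjusted p below 0.05. Ifng was listed at 0 CPM in both day 7 libraries and at 0 to 0.112 CPM at day 2. Ifnb1 was at 0 in both day 7 libraries and at 0.113 to 1.32 CPM at day 2. A count of 0 at these totals allows up to 0.314 and 0.325 CPM (3 counts), so transcripts of these interferons were not detectable at day 7 at this depth.

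The mean log2 CPM over the 22 interferon response genes took the values 2.91, 2.96, 3.01 and 2.87 at day 2 and 4.29 and 3.40 at day 7. In unoperated old islets it was 3.02, 3.15, 3.06 and 3.28, and at day 14 2.87 and 3.81. Day 2 thus varied little and lay just under every control library, whereas the libraries of day 7 and of day 14 differed widely between replicates. With 2 against 4 libraries there are 15 assignments and the smallest two-sided exact p is 0.133, so the score was not tested. The list median of day 7 minus control was 0.81, of day 2 minus control -0.19 (4 of 15521 genes, 0.0258%, passed in that comparison) and of day 14 minus day 7 -0.58 (2 genes passed). These contrasts share libraries.

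**Figure D2:**
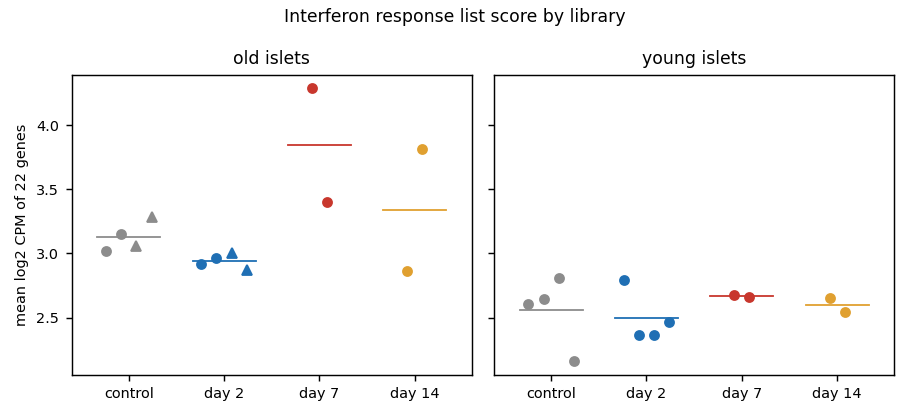
Mean log2 CPM of the 22 interferon response genes (y axis) in each library by group (x axis), old islets at the left and young at the right; circles mark the first run label, triangles the second, and lines the group means. In old islets the day 7 libraries stand at 4.29 and 3.40 against 2.87 to 3.01 at day 2. In young islets day 7 (2.68 and 2.66) lies within the day 2 range of 2.36 to 2.79. Of the young day 2 libraries only replicate 1 is above day 7.

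In young islets the same score was 2.79, 2.36, 2.36 and 2.46 at day 2 and 2.68 and 2.66 at day 7, so that day 7 lay within day 2. In the young fit 5 of 14493 genes, 0.0345%, passed the threshold, and the list median was 0.19 over the 18 genes tested. Gbp10 differed by 0.44 and Gbp6 by 0.75 in young islets. The difference between ages was itself tested: it was 1.84 (SE 0.616, adjusted p = 0.273) for Gbp10 and 1.20 (SE 0.508, adjusted p = 0.349) for Gbp6, and 0 of 15794 genes passed by edgeR (1983, or 12.6%, had an unadjusted p below 0.05, and DESeq2 called 114). Over the interferon response list the median difference between ages was 0.88. The difference in Gbp6 and Gbp10 was therefore not shown to be particular to old islets.

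**Figure D3:**
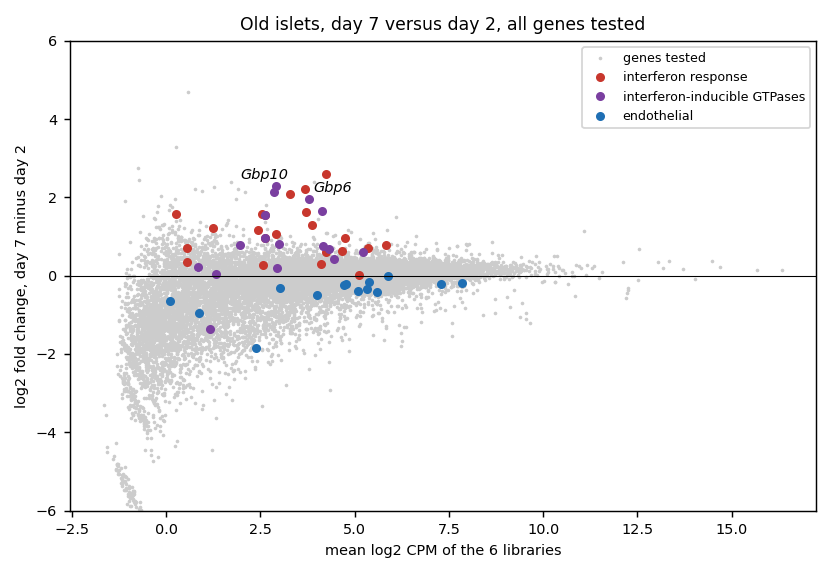
Log2 fold change of day 7 minus day 2 (y axis) against mean log2 CPM of the 6 libraries (x axis) for the genes tested, with 3 gene lists in colour; 16 genes beyond 6 log2 units are outside the axis. Most interferon response genes and GTPases lie above 0 and the endothelial genes at or below 0, and genes with few counts spread mostly downwards.

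Over all genes, 1628 (10.5%) had an unadjusted p below 0.05, 704 with higher and 924 (5.95%) with lower values at day 7. In 2765 genes (17.8%) both day 7 libraries were below every day 2 library, compared with the 5.9% above. Among the 2981 genes with a mean log2 CPM under 1 the shares were 23.7% below and 1.27% above, and among the other 12540 they were 16.4% and 7%. Day 2 replicates 3 and 4, which had the lower share of reads in genes, had 19491 and 19902 rows above 0 against 17138 to 17886 in the other 4 libraries. With replicates 3 and 4 set aside, in the libraries of the first run label, 659 genes were higher (4.73%) and 652 lower (4.68%). The part of the run label in the lower values was not tested.

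Most markers of immune cells lay in the same direction as the interferon genes. Of 23 macrophage and granulocyte genes tested, 6 had an unadjusted p below 0.05 with higher values, against 4.54% of all genes, and in 8 both day 7 libraries were above day 2, against 5.9% (median log2 fold change 0.44, and 0.42 within the first run label). The summed CPM of the list was 435 to 587 at day 2 and 696 and 637 at day 7, and no measured member was at 0 in all libraries of either group. C1qb, a complement subunit made by macrophages, was at 24.7 to 37.1 CPM at day 2 and at 51.9 and 40.7 CPM at day 7. The lysosomal protease Ctss differed by 0.50 and lysozyme (Lyz2) by 0.58. Of the 23 genes, 17 had positive and 6 negative log2 fold changes. In 1 gene both day 7 libraries were below day 2, against 17.8% of all genes. Csf1r, another member, had 320, 327, 434 and 321 counts at day 2 and 310 and 247 at day 7. The list shares the 3 class II genes with the antigen presentation list. Of 8 lymphocyte genes tested 1 had an unadjusted p below 0.05 (4.54% of all genes were higher). The summed CPM of that list was 19.1 to 26.8 at day 2 and 36.3 and 25.2 at day 7. The CD3 chain gene Cd3e had 0, 0, 1 and 2 counts at day 2 and 0 in both day 7 libraries. Cd3g, another CD3 chain gene, had 0, 1, 0 and 4 counts at day 2 and 7 and 2 at day 7. Neither gene was among those tested. The part of immune cells in the interferon values was not tested. In whole islets, more cells of a type and more RNA per cell cannot be told apart.

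Among the 10 lowest p values with higher values at day 7 beside the genes past the threshold were also Nfkbiz, Pim2 and Elf3. Nfkbiz, an inducible nuclear cofactor of NF-kappaB, was at 49.1, 39.0, 52.2 and 58.7 CPM at day 2 and at 148 and 117 CPM at day 7 (log2 fold change 1.498, SE 0.255, adjusted p = 0.221). Pim2, a survival kinase, was at 117, 132, 132 and 101 CPM at day 2 and at 182 and 219 CPM at day 7 (0.83, SE 0.137, adjusted p = 0.221). Elf3, an epithelial ETS factor, was at 38.8 to 47.4 CPM at day 2 and at 61.7 and 56.4 CPM at day 7 (0.57, SE 0.113, adjusted p = 0.237). All 3 were separated between the groups and had nearly the same values within the first run label (1.66, 0.76 and 0.59).

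Against unoperated islets, where 141 of 15521 genes (0.908%) passed, day 7 was higher in Pim2 by 1.28 (adjusted p = 0.00351) and in Elf3 by 1.31 (adjusted p = 0.00112), and day 2 values lay between or overlapped the controls. Further genes are those of lowest p in 2 lists, inflammation and cytokine signalling through STAT factors. The NF-kappaB inhibitor Nfkbia was at 54.7 to 87.7 CPM at day 2 and at 111 and 131 CPM at day 7, and rose against control by 1.24 (adjusted p = 0.0139). Socs3, the feedback inhibitor of STAT3, was at 8.49 to 11.02 CPM in controls, at 18.4 to 23.4 CPM at day 2 and at 44.8 and 24.3 CPM at day 7, and rose at day 7 against control by 1.91 (adjusted p = 0.00342). Bcl3, a nuclear IkappaB protein, was at 3.96 to 6.97, then 10.9 to 14.0, then 26.0 and 15.5 CPM, a rise at day 7 against control of 2.09 (adjusted p = 0.00571). Socs3 and Bcl3 thus stood above every control library at both days, and the step from day 2 to day 7 (0.86 and 0.80) did not pass the threshold. By day 14 Socs3 was at 7.93 and 9.29 CPM and Bcl3 at 6.11 and 5.49 CPM, near the control levels.

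Over the 19 tested genes of cytokine signalling through STAT factors 9 had positive and 10 negative log2 fold changes, with a median of -0.05 (0.02 within the first run label). Of these, 3 had an unadjusted p below 0.05 with higher and none with lower values, against 4.54% and 5.95% of all genes. Both day 7 libraries were above day 2 in 3 and below in 3, against 5.9% and 17.8% of all genes. Cish, a STAT5 target that was picked after its values were seen, was at 44.7, 30.7, 32.4 and 8.19 CPM at day 2 and at 16.3 and 12.4 CPM at day 7, the reverse direction of Socs3, with overlap (log2 fold change -0.92, SE 0.595, adjusted p = 0.517).

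The transcript of Stat3 itself was at 281 to 415 CPM at day 2 and at 434 and 397 CPM at day 7, overlapping, and rose at day 7 against control by 1.07 (adjusted p = 0.0180). Rgs4, which shortens signalling by G-protein-coupled receptors, was at 91.7 to 116 CPM at day 2 and at 211 and 92.5 CPM at day 7, so that only 1 library stood out. Tph2, an enzyme of serotonin synthesis, was at 1.47 to 2.69 CPM and 4.08 and 4.54 CPM. In the list of 22 inflammation genes 3 (Cxcl10, Nfkbia and Nfkbiz) had an unadjusted p below 0.05 with higher values (4.54% of all genes), and the median log2 fold change was -0.23 over 4 day 2 libraries and 0.73 within the first run label. Ccl2 was at 0.761 to 2.38 CPM at day 2 and at 1.57 and 0.433 CPM at day 7, and Lcn2 at 0.226 to 4.05 and at 1.78 and 0.433 CPM, each overlapping.

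No gene passed the threshold in the lower direction by edgeR, where 924 genes had an unadjusted p below 0.05 and DESeq2 called 28. Among the 10 lowest p values were long RNAs kept in the nucleus. Malat1, a nuclear speckle RNA, was at 969.5, 688, 1153 and 1022 CPM at day 2 and at 489 and 444 CPM at day 7 (log2 fold change -0.95, SE 0.183, adjusted p = 0.221), and Neat1, the scaffold of paraspeckles, was at 108, 74.2, 144 and 145 CPM and at 58.0 and 31.1 CPM (-1.32, SE 0.292, adjusted p = 0.294). Both day 7 libraries were under all day 2 libraries in each gene, and Malat1 fell against control by 1.499 (adjusted p = 0.00758). Between libraries of the first run label they differed by -0.76 and -0.97. Of 5 nuclear or long noncoding RNAs tested, a list made after values were seen, 4 had an unadjusted p below 0.05 with lower values, against 5.95% of all genes. The share of reads in genes was highest in the day 7 libraries (58.5% and 61.4%). Over 22 settings, 1 of them with a term for that share, Malat1 ranged from -1.071 to -0.762 and Neat1 from -1.817 to -0.918. Whether the share accounts for the lower values was not tested.

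Podxl, a sialomucin of podocytes, endothelium and other cells, was at 136, 137, 153 and 144 CPM at day 2 and at 87.6 and 95.8 CPM at day 7 (log2 fold change -0.55, SE 0.103, adjusted p = 0.221). Ptprb, the vascular endothelial receptor phosphatase, was at 57.5, 46.4, 71.7 and 75.4 CPM and at 32.5 and 28.6 CPM (-0.95, SE 0.197, adjusted p = 0.260). The groups were separated in both genes, also within the first run label (-0.51 and -0.70). The remaining genes of the 10 were Rgs11, a regulator of G-protein signalling (-0.83), the membrane repair gene Dysf (-0.78), the splicing gene Luc7l (-0.41), Lrrc45 (-0.74), Greb1l (-1.09) and 6720401G13Rik (-0.90).

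All 14 endothelial markers tested had negative log2 fold changes, with a median of -0.32 against -0.03 over all genes. Of these, 3 had an unadjusted p below 0.05, against 5.95% of all genes, and in 8 both day 7 libraries were below day 2, against 17.8%. Of the same 14 genes, 9 within the first run label had an unadjusted p below 0.05 with lower values, against 4.68% of all genes, and the median was -0.42. Flt1, a receptor for vascular endothelial growth factor, was at 54.5, 54.8, 50.1 and 57.5 CPM at day 2 and at 36.5 and 40.4 CPM at day 7 (log2 fold change -0.41, SE 0.113, adjusted p = 0.357). The adhesion molecule Pecam1 was at 39.3, 39.8, 34.9 and 36.1 CPM and at 27.1 and 26.6 CPM (-0.40, SE 0.125, adjusted p = 0.434). Robo4 and Tie1, receptors of the vascular wall, differed by -0.49 and -0.33, and in all 4 genes the groups were apart. The summed CPM of the list was 673 to 875 at day 2, 608 and 600 at day 7 and 783 to 1004 in controls. The basement membrane collagens Col4a1 and Col4a2 differed by -0.42 and -0.54 and the matrix protein Sparc by -0.63.

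**Figure D4:**
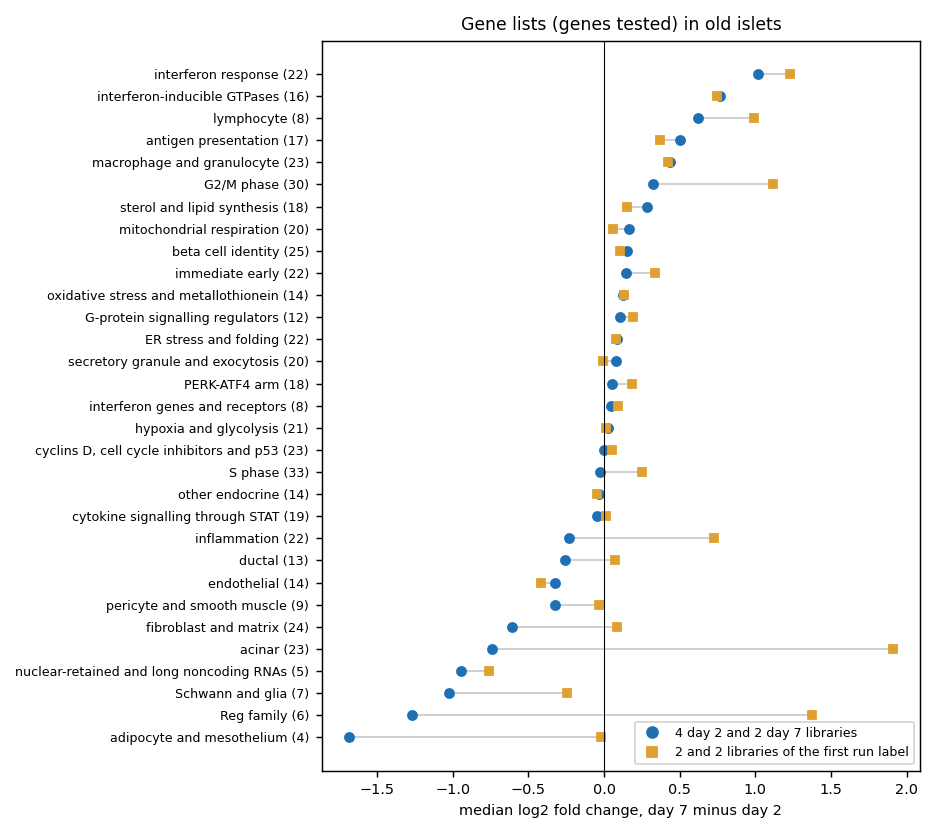
Median log2 fold change of day 7 minus day 2 (x axis) in each gene list (y axis, with the number of genes tested); blue circles use all 4 day 2 libraries and yellow squares the first run label alone, joined by a line. The interferon lists (1.02 and 1.23 for the response) and the endothelial list (-0.32 and -0.42) keep their places, whereas acinar (-0.74 and 1.91) and Reg genes (-1.27 and 1.38) change sides.

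The Reg genes, secreted lectins induced in injured acinar and islet tissue, depended on which day 2 libraries were used. Reg2 was at 17.8, 39.8, 171 and 590 CPM in day 2 replicates 1 to 4 and at 96.5 and 27.4 CPM at day 7, against 0.575 to 1.60 CPM in controls. Its log2 fold change was -1.66 over 4 day 2 libraries and 1.17 within the first run label, and neither passed the adjusted threshold. Reg3b, an antimicrobial lectin, was at 22.2, 49.2, 216 and 561 CPM and at 105 and 12.2 CPM, with -1.79 and 0.78. Reg3a and Reg3g likewise went from -0.66 to 1.82 and from -2.39 to 0.23. All 4 genes were above every control library at day 2 and day 7, with Reg3g at 1.52 to 120 CPM at day 2 and at 15.5 and 2.06 CPM at day 7 against at most 0.432 CPM in controls. By day 14 Reg2 was at 0.390 and 0.242 CPM.

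Acinar genes moved with the Reg genes in the day 2 and day 7 libraries. The summed CPM of 24 acinar genes, tested or not, was 2350, 4831, 9770 and 38200 at day 2 and 16400 and 2786 at day 7. The median log2 fold change of the 23 tested went from -0.74 to 1.91 within the first run label. The elastase gene Cela1 was at 63.8, 133, 370 and 1288 CPM and at 255 and 48.3 CPM, and the trypsin inhibitor Spink3 at 0.218 to 16.6 CPM and at 2.09 and 0.108 CPM. The order of libraries by acinar genes was that of Reg2 in the day 2 group and at day 7. Unoperated libraries had acinar sums of 13940, 2127, 3373 and 5956 CPM but only 5, 5, 12 and 11 counts of Reg2. The match thus did not extend to the controls. The part of acinar genes in the Reg values was not tested. In fibroblast and matrix genes the median was -0.61 over 4 libraries and 0.09 within the first run label, and in Schwann and glial genes -1.03 and -0.25.

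**Figure D5:**
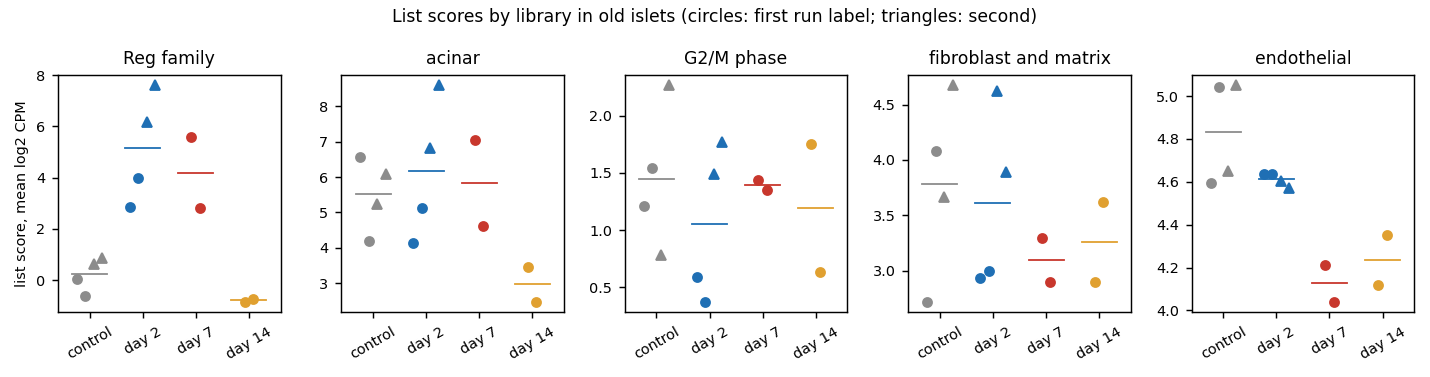
Mean log2 CPM (y axis) of 5 gene lists in each old library (x axis, group); circles are libraries of the first run label, triangles those of the second, and lines group means. Day 2 triangles stand above day 2 circles in the Reg, acinar, G2/M and fibroblast lists, but not in the endothelial list, where the 4 day 2 libraries (4.57 to 4.64) lie above day 7 (4.21 and 4.04).

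Replication genes, which the study followed at day 2, did not pass the threshold. Mki67, a marker of cycling cells, was at 4.46, 3.05, 11.5 and 7.41 CPM at day 2 and at 6.59 and 8.55 CPM at day 7, and Top2a at 4.89, 3.61, 8.28 and 8.19 CPM and at 10.7 and 8.01 CPM. Day 7 lay above the day 2 libraries of the first run label and among or near those of the second. None of 30 G2/M genes had an unadjusted p below 0.05 over 4 libraries (median 0.33), whereas 10 did within the first run label (median 1.12, 4.73% of all genes higher). The list score, mean log2 CPM, was 1.44 and 1.35 at day 7, within the controls (1.21, 1.54, 0.78 and 2.27). Day 2 replicates 1 and 2 were at 0.59 and 0.37, below every control. The list median of day 7 minus control was -0.008. The mitotic kinase Cdk1 was at 0.653 to 2.47 CPM at day 2 and at 3.56 and 2.16 CPM at day 7. Plk1, another mitotic kinase, was at 0 to 1.498 CPM and at 2.61 and 1.41 CPM. Tacc3 and Tpx2, which act on the spindle, differed by 0.48 and 1.01. Of 28 G2/M genes with a window, 22 held the letters TTTGAA of the cell cycle homology region, against 20.2% of all windows.

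Among 33 S phase genes the median was -0.03 (0.25 within the first run label) and none had an unadjusted p below 0.05 over 4 libraries. The helicase subunits Mcm2, Mcm5 and Mcm6 differed by 0.21, -0.03 and 0.32, and the clamp gene Pcna was at 24.8 to 34.4 CPM at day 2 and at 27.6 and 33.8 CPM at day 7. The D cyclins Ccnd1 and Ccnd2 differed by 0.00 and 0.27 and the inhibitor Cdkn1a by 0.03. In all of these genes the groups overlapped. In young islets, by comparison, Mcm2, Mcm5 and Mcm6 differed by -0.72, -0.81 and -0.54, and the difference between ages did not pass the threshold for any of the 3.

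Beta cell genes differed little. Ins1 was at 12000, 11390, 15920 and 13680 CPM at day 2 and at 14390 and 13450 CPM at day 7 (log2 fold change 0.16, SE 0.141), and Ins2 differed by 0.14 (SE 0.140). The other hormone genes Gcg (0.36), Sst (0.18) and Ppy (-0.11) overlapped as well. Of 25 beta cell identity genes, 21 had positive values and 3 an unadjusted p below 0.05 with higher values (4.54% of all genes), with a median of 0.15, and within the first run label 9 had one with higher (4.73% of all genes) and 1 with lower values (4.68%). Trpm5, a cation channel activated by calcium, was at 26.1 to 46.5 CPM at day 2, 52.4 and 65.8 CPM at day 7 and 71.0 to 104.5 CPM in controls, so that day 7 lay between (log2 fold change 0.83, SE 0.210, adjusted p = 0.336). Sytl4, a granule tethering protein, was at 221 to 259 CPM at day 2 and at 321 and 354 CPM at day 7. The prohormone convertase gene Pcsk1 differed by 0.36 and the maturity factor Mafa by 0.48.

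Immediate early genes, which respond within minutes to signals and to handling, had a median of 0.15 over 22 genes and 5 with an unadjusted p below 0.05 and higher values (4.54% of all genes), and of 0.33 and 11 within the first run label (4.73% of all genes). Nr4a1 was at 14.7 to 31.5 CPM at day 2 and at 61.7 and 37.3 CPM at day 7, and Egr1, Junb and Dusp1 differed by 0.94, 0.80 and 0.64 with overlapping libraries. In sterol and lipid synthesis 5 of 18 genes had an unadjusted p below 0.05 with higher values, against the same 4.54% (median 0.29): Sqle was at 178 to 223 CPM at day 2 and at 257 and 278 CPM at day 7, and Nsdhl and Acly differed by 0.64 and 0.28. Chaperones and other ER stress genes had a median of 0.08 over 22 genes. None was higher and 2 were lower at an unadjusted p below 0.05, against 4.54% and 5.95% of all genes. Hspa5, the main ER chaperone, was at 2306 to 2706 CPM at day 2 and at 2280 and 3387 CPM at day 7. In the arm of the stress response that runs through PERK and ATF4, 4 of 18 genes had an unadjusted p below 0.05 with higher values, again against 4.54%: the serine and asparagine synthesis genes Phgdh (0.72) and Asns (0.35), the mTORC1 inhibitor Ddit4 (0.81) and the phosphatase subunit Ppp1r15a (0.38). Its target Trib3 differed by -0.78 and overlapped.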

How the data were processed

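Islet RNA was amplified from low input and read from 1 end. Per the file headers, the authors aligned reads to mm9 with TopHat and counted uniquely mapped reads per RefSeq gene with rpkmforgenes. The submitters' processing notes also name bcl2fastq, CASAVA 1.8.2, Trimmomatic 0.36 and TopHat2 2.1.1, and the study's methods name other tools for its own lists. The deposited counts are whole numbers without normalization. The deposited RPKM values, which the authors scaled by gene length and by reads in genes, served only in 1 alternative, as log2(RPKM + 1). Of 22197 rows, 1458 joined several gene names and 441 had repeated names, so their values are uncertain. Whether strand was used in counting is not given.

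Counts were tested with edgeR 4.0.16 (quasi-likelihood, TMM, filterByExpr) in R 4.3.3 over 12 old libraries, 8 old libraries of the first run label, 12 young libraries, or all 24 for the difference between ages. p-values were adjusted by Benjamini-Hochberg at 0.05. Log2 CPM used a prior count of 2. Where no separate animals are named, p-values measure the spread between these samples. Totals of 8865989 to 11349494 counts in the 6 libraries set the counting precision, and no replicate pair agreed within sampling noise. The members and gene lists were chosen with earlier results of these data known. Named were genes past the threshold (mean log2 CPM over 1, no overlap between groups), the 10 lowest p values in each direction by the same filters, 26 fixed genes, of which Ddit3 and Cdkn2a could not be tested, and up to 4 genes of lowest p per list. The lists of GTPases, antigen presentation, interferon genes and receptors, and noncoding RNAs, and further members named from them, were added after values were seen. Some genes of the lists are not reported here by name. Gene positions are 1-based from the mm9 annotation. Start windows are from RefSeq on GRCm38.p6.

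On simulated counts with 100 genes changed 2-fold and 100 changed 4-fold, 50% and 72% were recovered in the 12-library design (15037 genes; 6.15% false calls), 26% and 64% within the first run label (14691 genes; 9.09%), and 55% and 77% with DESeq2 1.42.0 (15521 genes; 21.9%). Deviations of same-numbered day 2 and day 7 libraries from their group means correlated with r of -0.248 and 0.168. With 2 day 7 libraries these deviations mirror each other, so the values cannot show whether the numbers pair libraries. Alternatives were RLE and upper quartile scaling, other filters, rows with 1 unrepeated name, acinar genes removed, DESeq2, limma 3.58.1, the run label, replicate number or share of reads in genes as a term, fits of 6 or 24 libraries, a fold of at least 2, and leaving out each library.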

Additional observations from a re-analysis of the deposited data

Results flagged for a closer look

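Dixon's test was applied to the 4 day 2 libraries for each of 144 named genes and list scores, and 3 had a library apart from the others beyond the 95% critical value. Chance gives about 1 in 20, so these are fewer than chance would give. H2-Aa was lowest in day 2 replicate 4, at 47.3 CPM against 69.2 to 72.8 CPM in the other 3 libraries. Sparc was highest in day 2 replicate 3, at 130.5 CPM against 75.3 to 81.8 CPM, and the macrophage and granulocyte score was highest there, at 3.96 against 3.46 to 3.55. Both libraries carry the second run label. In the libraries of the first label, which leaves them out, the log2 fold changes were 0.47 for H2-Aa and -0.41 for Sparc.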

How the results depend on the processing

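The number of genes past the threshold was 2 with RLE or upper quartile scaling, acinar genes removed, a fold of at least 2, other filters, single-name rows or a term for the share of reads in genes. It was 0 in the 6 libraries alone, within the first run label, with the run label as a covariate, with limma and with the replicate block, and 0 in each fit without 1 of the 6 libraries. It was 19 (16 higher) with all 24 libraries and 70 (42 higher, 12 of the 70 in the interferon lists) with DESeq2. Added after seeing the data, the fit without day 14 replicate 2 gave 8, among them Ifit1, Ifit3, Iigp1, Cxcl10 and I830012O16Rik beside Gbp6 and Gbp10, and the fit without control replicate 4 gave 2. Over all fits without 1 library the range was 0 to 8. The cause was not tested. For the difference between ages the number was 0, except for 2 within the first run label, 114 with DESeq2, and 0 to 1 on leaving out 1 library (1 without young day 2 replicate 4). Gbp10 ranged from 1.61 to 2.61 and Gbp6 from 1.504 to 2.13 over 22 settings, both past the threshold in 11.

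Directions that changed were of overlapping genes. Within the first run label the log2 fold changes were -0.047 for Gcg, 0.72 for Mcm5, 0.26 for Trib3, 1.17 for Reg2, 1.82 for Reg3a, 0.78 for Reg3b, 0.23 for Reg3g, 1.20 for Lcn2, -0.11 for Cdkn1a, -0.014 for H2-K1, 0.69 for Cela1 and 0.56 for Spink3. With the run label as a covariate they were 0.021 for Ppy, 0.29 for Mcm5, 1.08 for Reg2, 1.82 for Reg3a, 0.78 for Reg3b, 0.21 for Reg3g, 0.44 for Lcn2, 0.40 for Ccl2, -0.18 for Cdkn1a and -0.041 for Ccnd2. With the replicate block they were 0.31 for Mcm5, 0.94 for Reg2, 1.28 for Reg3a, 0.37 for Reg3b, 0.21 for Reg3g, 0.58 for Lcn2, 0.29 for Ccl2, -0.17 for Cdkn1a and -0.033 for Ccnd2. Whether the replicate numbers pair libraries is not known. With the share of reads in genes they were 0.029 for Ppy, 0.43 for Mcm5, 1.99 for Reg2, 2.71 for Reg3a, 1.76 for Reg3b, 1.064 for Reg3g, 0.28 for Lcn2, 0.69 for Ccl2, -0.24 for Cdkn1a and -0.12 for Ccnd2. Near 0, Stat2 was -0.003 in the 6 libraries, -0.042 with upper quartile scaling, -0.074 with limma and -0.035 with at least 10 counts, Cdkn1a was -0.019, -0.038 and -0.012 in the last 3, and Mcm5 was 0.003 with limma and 0.006 with no filter. On leaving out 1 library, Stat2 ranged from -0.22 to 0.23, Ppy from -0.45 to 0.19, Cdkn1a from -0.075 to 0.14, Mcm5 from -0.21 to 0.45, Reg3a from -3.53 to 0.38, Rgs4 from -0.08 to 1.10, Isg15 from -0.81 to 1.44, Mx1 from -0.34 to 2.38, Ifi44 from -0.78 to 0.89, Sst from -0.032 to 0.39, Hspa5 from -0.069 to 0.51 and Ccl2 from -1.53 to 0.30. On simulated counts 50% of 2-fold changes were recovered in this design, so a p that missed the threshold does not show that levels were alike.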
